A study of Mus musculus with 8 samples.

Results

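Weak single promoters are the H3K4me3 peaks of named mouse genes that had exactly 1 peak within 1 kb of a transcription start site and a mean of under 10 CPM in the 2 KL libraries, where CPM is the reads of a peak scaled to 1000000 reads in listed peaks of its library. The members were thus chosen by their KL values. Predicted and unnamed genes were left out. There were 1297 such promoters, 11.2% of the 11556 single promoters of named genes, among 17073 promoter peaks and 35486 listed peaks in all. H3K4me3 was measured by CUT&Tag in primary tumor cells that were sorted as CD45-CD31-EpCAM+ from mouse lung tumors, with 2 KL libraries (replicates 1 and 2) and 2 KLG4m/m libraries (replicates 3 and 4). This gate is that of the sample labels and of the CUT&Tag methods. The general sorting methods write CD45.2+EpCAM+CD31- for tumor cells, a difference that was not resolved here. KL mice carry Lkb1fl/fl beside a Cre-activated allele, so that intranasal Ad-Cre removes the kinase gene Lkb1 in the infected lung cells. KLG4m/m mice carry Gpx4m/m in addition, an allele in which Cre lets the Gpx4 locus make the recombinase DreERT2 and tamoxifen then deletes exons 5 to 7 of Gpx4. All mice were on a C57BL/6 background, both groups received Ad-Cre at an age of 8 to 10 weeks and tamoxifen from the fifth week after it, and the tumors were taken 10 weeks after Ad-Cre, with 1000000 cells used per mouse. The deletion is limited to cells that Cre reached, so that other cells which pass the sort keep Gpx4. The sample descriptions speak of 3 mice in total, whereas 2 mice per group are stated where these libraries are described elsewhere, and every p-value measures only the spread between these libraries.

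H3K4me3, trimethylation of lysine 4 of histone H3, is laid down around the start sites of genes that are transcribed or held ready for transcription, and promoters rich in CG dinucleotides carry it more broadly than others. A gene that is on in a small share of the cells gives a weak peak in a bulk library, and so does a gene with little of the mark in every cell; these cannot be told apart in the 4 libraries. GPX4 reduces lipid hydroperoxides in membranes and so protects cells from ferroptosis, an iron-dependent form of cell death.

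Promoter sequences are shown as examples from the genes of these peaks. They are those of the first 3 rises and the first 3 falls by fold change among the genes below that met the following conditions. The gene had 1 promoter in the RefSeq table, and its listed transcript length was within 25 bases of the RefSeq gene length. Larger changes such as Fam3d and Zfp804a were thus passed over. Each is the GRCm38.p6 RefSeq sequence from 250 bases before to 50 bases after the gene's start, 5′ to 3′ on the strand of the gene, in lower case with every CG dinucleotide in capitals. The sequences were matched by gene and not by peak position. Peak positions given below are of an uncertain build and differ from the printed coordinates, so the sequence under a peak was not read.
Srp54b (chr12:55154854-55155153, + strand): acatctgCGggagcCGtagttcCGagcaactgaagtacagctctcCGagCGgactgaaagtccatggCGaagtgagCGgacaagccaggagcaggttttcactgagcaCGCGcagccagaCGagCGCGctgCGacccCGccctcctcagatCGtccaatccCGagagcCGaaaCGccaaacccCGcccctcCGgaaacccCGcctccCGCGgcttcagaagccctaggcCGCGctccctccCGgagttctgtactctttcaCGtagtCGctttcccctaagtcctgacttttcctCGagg
Gabrp (chr11:33578908-33579207, - strand): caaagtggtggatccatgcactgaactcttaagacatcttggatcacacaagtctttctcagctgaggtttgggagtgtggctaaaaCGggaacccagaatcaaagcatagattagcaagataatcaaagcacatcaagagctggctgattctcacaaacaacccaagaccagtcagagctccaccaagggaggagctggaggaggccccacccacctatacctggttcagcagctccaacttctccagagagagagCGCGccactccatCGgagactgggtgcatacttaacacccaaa
P2rx1 (chr11:72998895-72999194, + strand): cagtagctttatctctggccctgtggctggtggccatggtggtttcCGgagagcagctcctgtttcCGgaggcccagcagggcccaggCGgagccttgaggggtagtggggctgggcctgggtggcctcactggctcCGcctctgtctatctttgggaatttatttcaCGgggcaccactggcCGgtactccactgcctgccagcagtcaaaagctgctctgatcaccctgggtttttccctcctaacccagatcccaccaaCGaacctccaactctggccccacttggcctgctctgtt
Tub (chr7:109010630-109010929, + strand): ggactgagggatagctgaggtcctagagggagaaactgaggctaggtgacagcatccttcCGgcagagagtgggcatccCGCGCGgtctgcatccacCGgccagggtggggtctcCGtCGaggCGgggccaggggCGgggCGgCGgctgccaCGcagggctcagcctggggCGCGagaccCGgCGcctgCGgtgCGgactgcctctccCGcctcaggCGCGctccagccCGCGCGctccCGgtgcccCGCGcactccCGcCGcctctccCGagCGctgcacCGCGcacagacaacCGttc
Lamp3 (chr16:19706316-19706615, - strand): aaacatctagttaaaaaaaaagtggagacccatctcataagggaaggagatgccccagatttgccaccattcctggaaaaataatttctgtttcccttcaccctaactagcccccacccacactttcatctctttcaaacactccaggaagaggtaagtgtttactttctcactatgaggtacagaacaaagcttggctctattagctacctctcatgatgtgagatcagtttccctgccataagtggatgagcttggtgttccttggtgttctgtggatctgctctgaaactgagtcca
Cabp7 (chr11:4747130-4747429, - strand): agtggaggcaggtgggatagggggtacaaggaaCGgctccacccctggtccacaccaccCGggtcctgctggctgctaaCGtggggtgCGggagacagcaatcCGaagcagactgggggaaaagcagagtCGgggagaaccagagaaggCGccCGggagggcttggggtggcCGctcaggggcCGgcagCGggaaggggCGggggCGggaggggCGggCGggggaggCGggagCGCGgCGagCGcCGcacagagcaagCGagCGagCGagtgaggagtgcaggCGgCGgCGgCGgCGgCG
Among the genes whose H3K4me3 rose, Gabrp had 4 and P2rx1 had 7 CG in the 300 bases, while Srp54b had 29. At least as many CG stood in 68.6% of the 32851 promoters of the table for Gabrp, in 52.1% for P2rx1 and in 12.9% for Srp54b. Among the genes whose H3K4me3 fell, Tub had 34 and Cabp7 had 30, counts reached by 7.73% and 11.7% of all promoters, while Lamp3 had none. None of the 6 held TATAAA on either strand, against 13.6% of all promoters of that length. Gsc and Dio3, also among the falls and not printed, had 25 CG each and held TATAAA. Both directions thus held promoters with many and with few CG. A promoter in the table was found for 68.2% of the members and for 73.5% of those called, under the 80% that a comparison over the set would need, so base composition was not compared between the promoters that rose and those that fell.

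Reads in listed peaks numbered 3244495 to 3463731 per library. The weak single promoters held 0.801 to 0.820% of these reads, with a median of 19 to 21 reads and a mean of 6.18 to 6.32 CPM per promoter in each library. The single Gpx4 promoter peak, which lies outside the deleted exons and so does not check the deletion, had 242 and 236 reads in KL and 304 and 301 in KLG4m/m. Epcam, the epithelial surface protein of the sort, had 182 and 200 reads over its 2 peaks in KL and 115 and 94 in KLG4m/m. Ptprc, which encodes CD45, had 189 and 207 in KL and 241 and 204 in KLG4m/m. Pecam1, which encodes CD31, had 216 and 249 and then 244 and 265 over its 6 peaks. No Sftpc peak was listed, whereas Nkx2-1, the lung epithelial transcription factor gene, had 118 to 141 reads per library.

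The rule's own limit ran through a continuous range of levels. Just inside it stood Tmem35a, Insm2 and Slit3 at 9.963 CPM each in KL. Just outside stood Rasgef1c, Nlrc4 and Hoxb3os at 10.11 CPM each. Slit3, a secreted guidance protein, had 44 and 25 reads in KL and 16 and 24 in KLG4m/m, so its KL libraries differed by more than its group means did. Tmem35a had 39 and 30 reads in KL and 41 and 53 in KLG4m/m, and Insm2, a zinc finger factor of neuroendocrine cells, had 43 and 26 and then 22 and 20. BE692007, also among the 5 highest members in KL, had 38 and 31 reads there and 45 and 44 in KLG4m/m. At the other end stood Calcb, a calcitonin gene-related peptide gene, which had 1 and 6 reads in KL against 16 and 7 in KLG4m/m (adjusted p = 0.0949, edgeR's quasi-likelihood test), followed by Fam3d, Trav16n, Vtcn1 and Tceal3, which are described among the rises. The lowest KLG4m/m value belonged to Kng2, a kininogen gene, with 3 and 11 reads in KL against 4 and 0 in KLG4m/m (adjusted p = 0.243). Kng2 was chosen for its value, and a library with 0 reads still allows up to 3.

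Replicates of the weak promoters differed little more than counting would give. The chi-square per degree of freedom was 1.06 between the KL libraries and 1.08 between the KLG4m/m libraries, and 2.02 to 2.30 between a KL and a KLG4m/m library. For strong single promoters, those at 10 CPM or more in KL, these values were 1.22, 1.35 and 2.74 to 3.98. The counting error was nevertheless large at this level. The median absolute log2 ratio was 0.303 between the KL libraries and 0.307 between the KLG4m/m libraries at weak promoters, against 0.111 and 0.123 at strong ones. The smallest change that passed the threshold shrank as the level rose, from 2.01 on the log2 scale under 3 CPM (Nkain2, a fall) to 1.17 from 3 to 5 CPM (Klrb1b, a fall), 1.05 from 5 to 7 CPM (Tns4, a rise), 0.928 from 7 to 9 CPM (Gfi1b, a rise) and 0.733 above that (Xkrx, a rise), by mean CPM of the 4 libraries. A change of 1.5 times at such a promoter was therefore below what these libraries could call at an adjusted p under 0.05.

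By edgeR's quasi-likelihood test over all 35486 peaks (adjusted p under 0.05), H3K4me3 was higher in KLG4m/m at 50 weak single promoters (3.86%) and lower at 52 (4.01%). Over all listed peaks, 1099 (3.10%) were higher and 1960 (5.52%) were lower. Since KL values chose the members, these shares are a description and nothing is read from them. The strong single promoters stood at 2.49% higher and 9.89% lower, the promoters of genes with several promoter peaks at 4.13% and 8.02%, and the peaks under 10 CPM outside promoters at 2.68% and 2.10%. The log2 fold change of the weak single promoters had a median of -0.0182, with quartiles at -0.405 and 0.336, beside 0.00771 for all listed peaks. Both KLG4m/m libraries lay above both KL libraries at 347 weak single promoters (26.8%, against 27.5% of all listed peaks) and below both at 341 (26.3%, against 26.6%). All 102 called promoters were among these, so none of them overlapped between the groups. In KLG4m/m, 133 members (10.3%) reached a mean of 10 CPM or more, of which 30 were called higher. In the opposite direction, 310 strong single promoters were under 10 CPM in KLG4m/m, of which 130 were called lower.

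**Figure D1:**
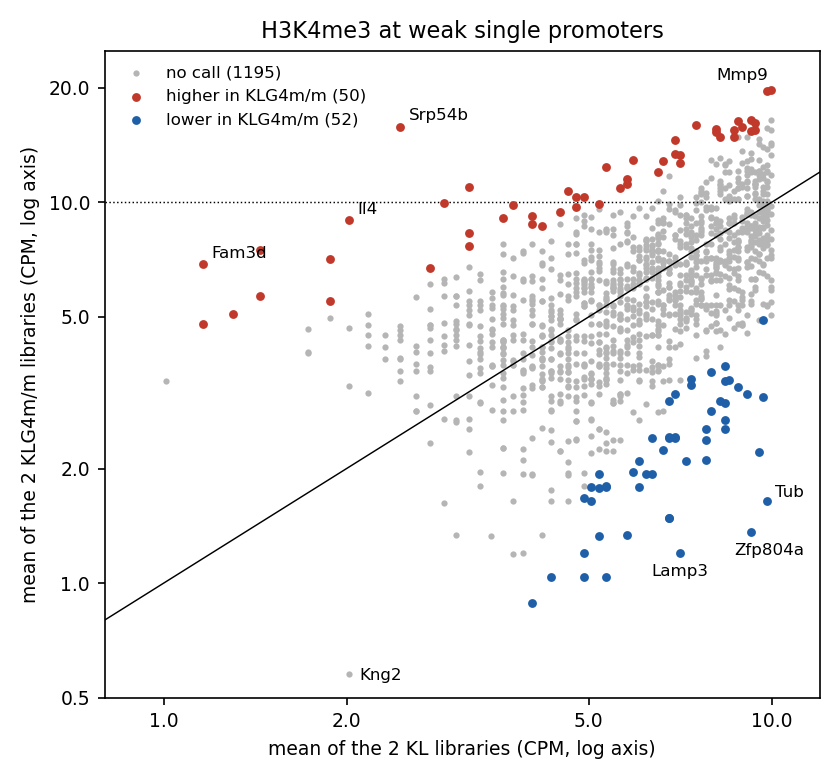
Mean H3K4me3 of the 2 KL libraries (x axis, CPM, log scale) against that of the 2 KLG4m/m libraries (y axis, CPM, log scale) for the 1297 weak single promoters, 1 point each, with equal levels on the solid line and 10 CPM in KLG4m/m on the dotted line. The 50 promoters called higher lie above the cloud and the 52 called lower lie under it, with Srp54b and Fam3d farthest above the line and Zfp804a, Tub and Lamp3 farthest below it.

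**Figure D2:**
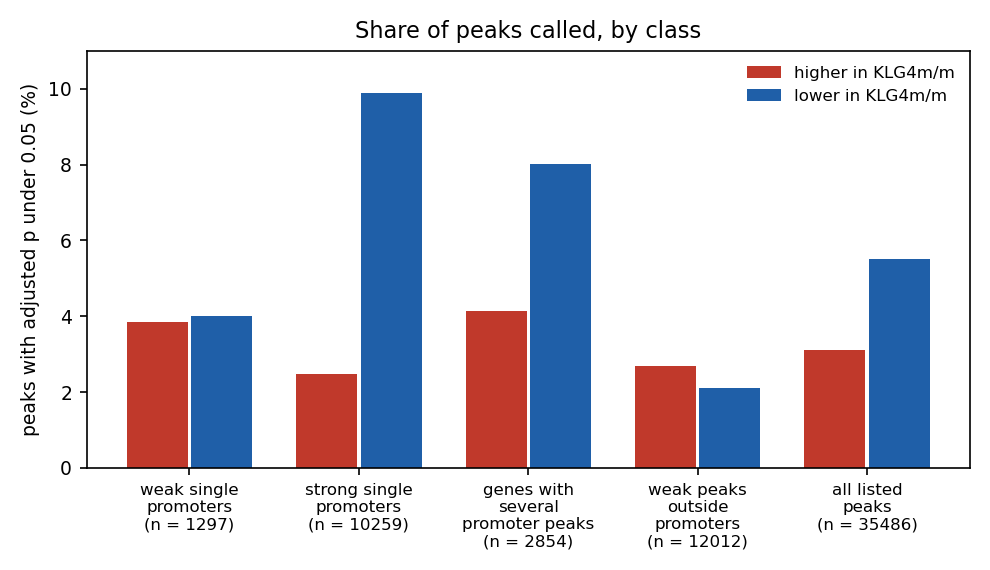
Share of peaks with an adjusted p under 0.05 (y axis, percent) that were higher (red) or lower (blue) in KLG4m/m, for each class of peak with its number on the x axis. Weak single promoters stand at 3.86% and 4.01%, strong single promoters at 2.49% and 9.89%.

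The calls depended on the tool and on the KLG4m/m libraries. With DESeq2 the only weak single promoter called was Srp54b, and 155 of the 1297 received an adjusted p after its filter on low counts; over all listed peaks it called 33 (0.152%) higher and 250 (1.15%) lower. With limma, and with edgeR after either KLG4m/m library was left out, no peak of the whole table was called; unadjusted p was then under 0.05 at 164 members above and 198 below with limma, at 84 and 102 without KLG4m/m replicate 3 and at 79 and 99 without replicate 4. At an unadjusted p under 0.05 in edgeR, 141 weak single promoters were higher and 160 lower (all listed peaks: 11.2% and 13.5%).

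The largest rise was at Srp54b. It encodes a copy of the signal recognition particle subunit that binds signal sequences. Its 401 bp peak was listed on chromosome 12 from 55202239 to 55202639, 350 bp downstream of the start listed with it. It had 7 and 10 reads in KL and 46 and 59 in KLG4m/m, a log2 fold change of 2.67 ± 0.321 (SE, adjusted p = 5.96e-06). The gene has close paralogs, so reads of this peak could belong in part to a copy. Fam3d, a secreted cytokine-like protein of the gut, had 4 reads in each KL library and 23 in each KLG4m/m library, a log2 fold change of 2.54 ± 0.460 (adjusted p = 8.65e-04). No other listed peak lay within 50 kb of either of them.

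Lipoxygenases, which add oxygen to polyunsaturated fatty acids, were among the rises at 2 genes. Alox12e, an epithelial 12-lipoxygenase gene, had 4 and 6 reads in KL and 37 and 14 in KLG4m/m (log2 fold change 2.38 ± 0.490), and without KLG4m/m replicate 3 the log2 fold change was 1.56. Alox8 had 27 and 22 reads in KL and 41 and 44 in KLG4m/m (0.85). Alox15, the single gene of the ferroptosis list among the weak single promoters, had 17 and 21 and then 28 and 29 reads and missed the threshold (0.64 ± 0.296, adjusted p = 0.180, edgeR's quasi-likelihood test).

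Il4, Vtcn1, Trav16n and P2rx1 were also among the 12 largest rises. Il4, the T helper type 2 cytokine, had 8 and 6 reads in KL and 30 in each KLG4m/m library (2.14 ± 0.371, adjusted p = 5.73e-04). Vtcn1, which encodes the T cell inhibitory ligand B7-H4, had 7 and 2 reads in KL and 17 in each KLG4m/m library (1.94 ± 0.517). Trav16n, a variable segment of the T cell receptor alpha chain, had 5 and 3 reads in KL and 16 in each KLG4m/m library (2.02 ± 0.518). P2rx1, an ATP-gated channel of platelets and smooth muscle, had 10 and 12 reads in KL and 44 and 30 in KLG4m/m (1.79 ± 0.324, adjusted p = 8.58e-04). In these 4 genes the lowest KLG4m/m count was more than 2 times the highest KL count. Without KL replicate 1 the log2 fold change of Vtcn1 was 3.06, and without KL replicate 2 it was 1.32.

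The other rises among the 12 were Gabrp, Pkp1, Tceal3, Trim58 and Mylk3. Gabrp, the pi subunit of the GABA-A receptor in epithelia, had 10 and 3 reads in KL and 17 and 30 in KLG4m/m (1.89 ± 0.466). Pkp1, the desmosomal plakophilin 1, had 10 reads in each KL library and 42 and 25 in KLG4m/m (1.79 ± 0.348). Tceal3, a gene of the elongation factor A-like family on the X chromosome, had 3 and 7 reads in KL and 20 and 18 in KLG4m/m (1.96 ± 0.477). Lack of overlap between the groups was a condition for naming the 12 rises and the 12 falls. Trim58, a ubiquitin ligase of red cell precursors, had 4 and 9 and then 19 and 18 reads (1.55 ± 0.453). Mylk3, the myosin light chain kinase of heart muscle, had 8 and 14 and then 33 and 23 reads (1.39 ± 0.354). Gabrp had a log2 fold change of 2.97 when KL replicate 1 was left out and 1.28 when KL replicate 2 was, and without KL replicate 2 that of Tceal3 was 2.67 and that of Trim58 2.23.

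**Figure D3:**
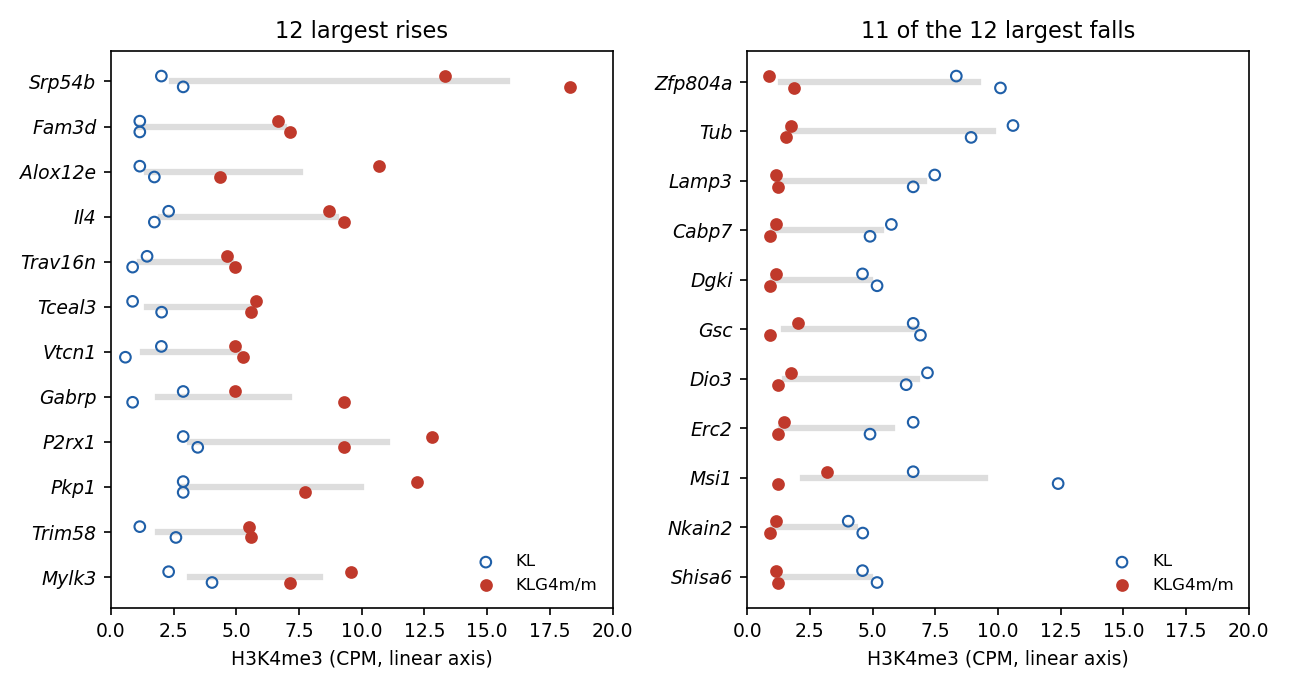
H3K4me3 in CPM (x axis, linear) of the 12 weak single promoters with the largest rise (left) and of 11 of the 12 with the largest fall (right), with open blue circles for the 2 KL libraries, filled red circles for the 2 KLG4m/m libraries and a grey bar from 1 group mean to the other. In each row the circles of the groups are separate, which was a condition for the choice. Msi1 is spread most in KL, and Alox12e, Srp54b and Pkp1 are spread most in KLG4m/m.

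Among the other 38 promoters that rose, the highest in KLG4m/m were Mmp9, the gelatinase of neutrophils and macrophages, with 30 and 39 reads in KL against 82 and 51 in KLG4m/m (1.00 ± 0.229), and Ifitm1, an interferon-induced membrane protein, with 35 and 33 and then 66 and 65 (1.00 ± 0.207). Ly6d, a surface protein of lymphoid progenitors and squamous cells, had 33 and 31 and then 54 and 56 reads (0.84). S1pr3, a sphingosine 1-phosphate receptor, had nearly the same level in KLG4m/m, with 44 and 65 reads against 34 and 35 in KL, and missed the threshold (0.72 ± 0.237, adjusted p = 0.0580, edgeR's quasi-likelihood test). Art4, the ADP-ribosyltransferase of the Dombrock blood group, had 36 and 25 and then 54 and 55 reads (0.89). Ifitm6 lay 48.7 kb from Ifitm1 on chromosome 7 and rose with it, from 32 and 33 to 60 and 49 reads (0.80). Mst1r, the receptor of macrophage-stimulating protein on epithelia, rose from 21 and 11 to 37 and 35 reads (1.22).

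Mir196b was the single microRNA gene that rose, out of 26 microRNA genes among the members, and none fell. Of all weak single promoters 3.86% were called higher and 4.01% lower, and of all listed peaks 3.10% and 5.52%. It is a Hox cluster microRNA, and its peak had 27 and 25 reads in KL and 50 and 57 in KLG4m/m (1.10 ± 0.236, adjusted p = 0.00430, edgeR's quasi-likelihood test). Its mature RNAs (RefSeq, GRCm38.p6, chromosome 6, - strand) are shown because a change at this promoter concerns 2 products, with the seed from base 2 to base 8 in capitals.
mmu-miR-196b-5p: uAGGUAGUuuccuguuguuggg
mmu-miR-196b-3p: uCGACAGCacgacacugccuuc
The seed of the 5p arm is shared with mmu-miR-196a-5p, which no member encodes, and the seed of the 3p arm with no other mature RNA of the table. H3K4me3 at the gene does not tell how much of either was made. Of microRNA genes known from immune cells and lung, Mir155 had 20 and 18 reads in KL and 11 and 9 in KLG4m/m (adjusted p = 0.169) and Mir223, of neutrophils, 28 and 27 and then 33 and 32 (adjusted p = 0.512).

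The largest falls were at Zfp804a and Tub. Zfp804a, a zinc finger protein of the brain, had 29 and 35 reads in KL and 3 and 6 in KLG4m/m, a log2 fold change of -2.74 ± 0.419 (adjusted p = 1.39e-04). Tub encodes tubby, a membrane phosphoinositide-binding protein of neurons, and had 37 and 31 reads in KL and 6 and 5 in KLG4m/m (-2.54 ± 0.383, adjusted p = 1.22e-04). Cabp7, a neuronal calcium-binding protein gene, had 20 and 17 reads in KL and 4 and 3 in KLG4m/m (-2.31 ± 0.514). All 3 were down to 3 to 6 reads per library in KLG4m/m. Erc2, a scaffold of the presynaptic active zone, fell from 23 and 17 to 5 and 4 reads (-2.07 ± 0.477). Msi1, the RNA-binding protein Musashi of neural progenitors, fell from 23 and 43 to 11 and 4 reads (-2.06 ± 0.412). Nkain2, which interacts with the sodium pump, fell from 14 and 16 to 4 and 3 reads (-2.01 ± 0.545). Shisa6, an auxiliary subunit of AMPA receptors, fell from 16 and 18 to 4 in each library (-2.0 ± 0.508). Camk2b, a neuronal calcium and calmodulin dependent kinase, fell from 19 and 23 to 7 in each library (-1.51). The groups overlapped at no called promoter, so all of these counts were in KLG4m/m below the lowest KL count of the same gene. Msi1 had the widest gap within a group. The log2 fold change of Msi1 was -2.91 without KLG4m/m replicate 3 and -1.54 without KL replicate 2. That of Zfp804a was -3.35 without KLG4m/m replicate 4 and -2.29 without KLG4m/m replicate 3. The genes of this paragraph were grouped after their values were seen, and Camk2b is not among the 12 largest falls. Of the neuroendocrine and neuronal list, 3 genes were members (Chgb, Syp and Syt1), and none was called.

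Lamp3, the lysosomal membrane protein of alveolar type 2 cells and mature dendritic cells, had 26 and 23 reads in KL and 4 in each KLG4m/m library, a log2 fold change of -2.52 ± 0.455 (adjusted p = 8.51e-04). Its peak lay on chromosome 16, 240 bp downstream of the start, with no other listed peak within 50 kb. The other members of the alveolar type 2 and club cell list were Scgb1a1, with 12 and 18 reads in KL against 18 and 17 in KLG4m/m, and Cyp2f2, with 26 and 18 and then 35 and 19, neither of which was called. Over all 26 peaks of that list the summed H3K4me3 was 464 and 484 CPM in KL and 396 and 372 CPM in KLG4m/m, with 1 peak higher and 5 lower. Cxcl15, the lung epithelial chemokine lungkine, fell from 25 and 32 to 9 and 11 reads (-1.44).

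Dgki, a diacylglycerol kinase that turns diacylglycerol into phosphatidic acid, fell from 16 and 18 to 4 and 3 reads (-2.18 ± 0.525). Of the triacylglycerol and lipid droplet list, 3 of 46 genes with a peak were members, and none was called. They were Mogat1 and Mogat2, acyltransferases of monoacylglycerol, and the apolipoprotein gene Apoc1. Mogat2 had 33 and 34 reads in KL and 28 and 34 in KLG4m/m, Mogat1 11 and 15 and then 20 and 6, and Apoc1 24 and 25 and then 19 and 17.

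Gsc, the homeobox gene goosecoid, fell from 23 and 24 to 7 and 3 reads (-2.15 ± 0.447). Its log2 fold change was -2.82 without KLG4m/m replicate 3 and -1.72 without KLG4m/m replicate 4. En1, the homeobox gene engrailed 1, fell from 18 and 23 to 5 and 8 (-1.58), and Prrx2, a paired-related homeobox gene of mesenchyme, from 34 and 29 to 11 and 10 (-1.52). Nkx2-3, the homeobox gene of gut and spleen vessels, rose from 28 and 32 to 54 and 50 reads (0.85). Of the 24 Hox, Pax, Sox, Fox, T-box and Nkx genes among the members, a family that does not hold Gsc, En1 and Prrx2, Nkx2-3 was the single one called, with a median log2 fold change of 0.08 over the 24. The shares called over all weak single promoters were 3.86% higher and 4.01% lower. Dio3, the deiodinase that inactivates thyroid hormone, and its antisense transcript Dio3os have start sites in one imprinted domain, with peaks 1.13 kb apart on chromosome 12. Dio3 fell from 25 and 22 to 6 and 4 reads (-2.15 ± 0.439) and Dio3os from 19 and 16 to 6 in each library (-1.47). Grb10, another imprinted gene, which encodes an adaptor of insulin signaling, fell from 25 and 33 to 14 and 11 reads (-1.15).

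On chromosome 17 all 6 called members fell. H2-M2 and H2-T25, both nonclassical class I genes of the major histocompatibility complex, fell from 31 and 23 to 10 and 6 reads (-1.68) and from 25 and 23 to 10 and 11 (-1.13). Btnl6 and Btnl4, butyrophilin-like genes 41.6 kb apart, fell from 28 and 26 to 5 and 9 reads (-1.87) and from 15 and 19 to 3 and 8 (-1.55). The log2 fold change of Btnl4 was -2.44 without KLG4m/m replicate 4 and -0.98 without KLG4m/m replicate 3. The olfactory receptor gene Or5v1b fell from 21 and 26 to 7 and 9 reads (-1.48), 43.0 kb from H2-M2, and the mucin-like gene Mucl3 from 22 in each to 7 and 9 (-1.39). The 6 peaks spanned 3.14 Mb, in which 8 weak single promoters lay. Of all 162 listed peaks in the stretch, 4 (2.47%) were higher and 15 (9.26%) lower. The 15 hold the 6 called members that set the bounds of the stretch. In the rest of chromosome 17 the shares were 3.40% and 6.17%. The choice of bounds thus raised the share of falls in the stretch, and nothing is read from the comparison. The stretch was bounded by the called members after their values were seen, and H2 and butyrophilin genes have close copies between which reads could be split. Of the 4 members among H2 genes and the 4 among butyrophilin-like genes, 2 of each were called lower, beside 4.01% of all weak single promoters. Both families were added after the values were seen.

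Segments of the immunoglobulin and T cell receptor loci made up 30 of the weak single promoters, out of 39 such segments with a listed peak. No strong single promoter was of the V segment class, against 25 of the weak ones (1.93%). In KLG4m/m 4 of the 30 were higher, none was lower and 24 had a log2 fold change above 0, with a median of 0.36. Over all weak single promoters 3.86% were called higher and 48.8% were above 0, and over all listed peaks 3.10% and 51.0%. Besides Trav16n the segments called were Trav13-5, from 15 and 13 to 34 and 25 reads (1.12), Ighv8-4, from 8 and 14 to 21 and 30 (1.26), and Iglj3, a joining segment of the lambda light chain, from 15 and 10 to 31 and 30 (1.34). Summed over the 30 promoters, H3K4me3 was 155 CPM in each KL library and 206 and 196 CPM in KLG4m/m. The family was added after values were seen, and its segments are near copies of each other, so single segments are uncertain.

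Of 12 genes of the B cell list, 6 were weak single promoters, and 3 of these rose, among them Blk, a B cell tyrosine kinase, from 26 and 22 to 32 and 57 (0.95 ± 0.287), and Fcer2a, the low-affinity IgE receptor CD23, from 25 and 15 to 37 and 38 (0.96 ± 0.284). Over all weak single promoters 3.86% were called higher. Fcrla and Cr2 did not pass the threshold, with 6 and 22 and then 28 and 24 reads and with 18 and 25 and then 27 and 26. Cd22, another B cell receptor regulator, did not pass it either, with 18 and 24 reads in KL against 15 and 8 in KLG4m/m (adjusted p = 0.188). Outside the list, the B cell adaptor Blnk (34 and 30 to 55 and 48 reads, 0.74) and the B cell lectin Siglecg (21 and 20 to 41 and 45 reads, 1.12) rose as well. Both were named after their values were seen, so they add nothing to the list. Fcrl1, an Fc receptor-like gene of B cells outside the list, was also a member and was not called.

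B cells, T cells and myeloid cells carry CD45, which the labelled gate excludes. The summed H3K4me3 over all 23 peaks of the B cell list was 175 and 164 CPM in KL and 240 and 249 CPM in KLG4m/m, with 6 peaks higher and none lower, and Cd79a, a defining B cell gene, had no listed peak. The T cell list, of whose 18 genes Trat1 alone was a weak single promoter, summed to 835 and 853 CPM in KL and 961 and 982 CPM in KLG4m/m, and the macrophage and myeloid list to 663 and 669 and then 755 and 782 CPM. Of the 66 peaks of the T cell list 2 were higher and 1 lower, and of the 47 peaks of the myeloid list 3 were higher and 3 lower. Over all listed peaks 3.10% were higher and 5.52% lower. Lyz2, the lysozyme gene of macrophages and alveolar type 2 cells, had 191 and 206 reads over its 3 peaks in KL and 123 and 127 in KLG4m/m, with 2 peaks lower. Itgam, the integrin CD11b of myeloid cells, was the single one of 3 myeloid members that rose, from 25 and 31 to 56 and 47 reads (0.93 ± 0.234), beside S100a9 with 29 and 28 and then 31 and 39 reads and Fcgr1 with 20 and 29 and then 24 and 27. The endothelial sums, at 417 and 457 CPM in KL and 407 and 433 CPM in KLG4m/m, overlapped between the groups. The part of these lists in the rises at Il4, the receptor segments, Itgam and the B cell genes was not tested.

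**Figure D4:**
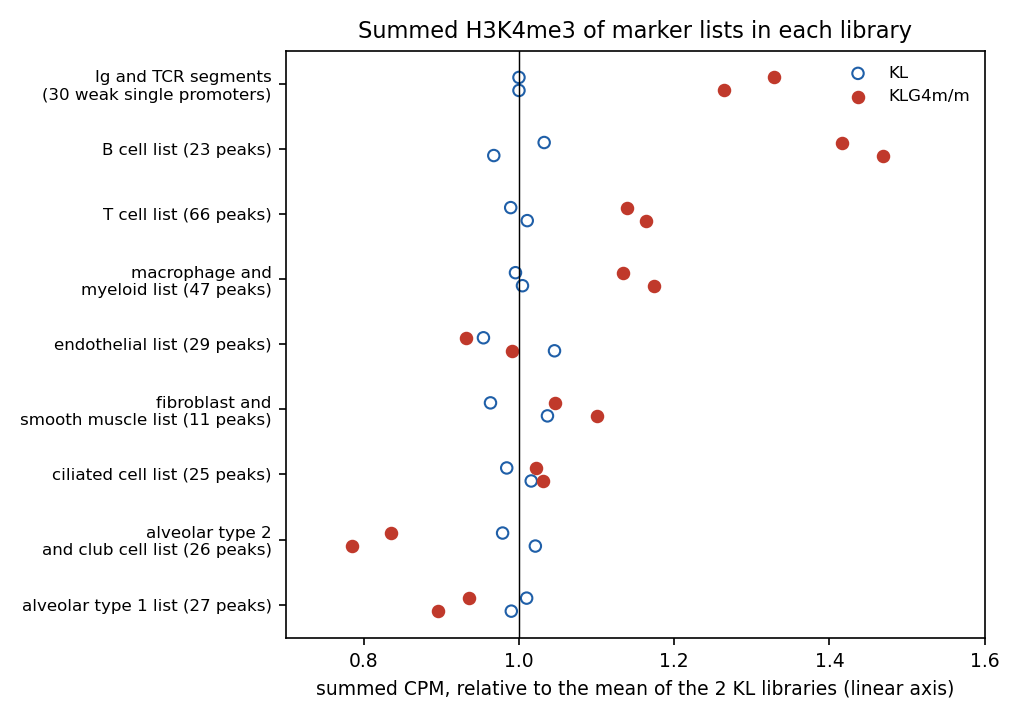
Summed H3K4me3 of each marker list in each library, divided by the mean of the 2 KL libraries (x axis, linear), with open blue circles for KL and filled red circles for KLG4m/m; the top row holds the 30 weak single promoters of receptor segments, and the other rows hold all listed peaks of the list. The KLG4m/m libraries lie at 1.42 and 1.47 for the B cell list, at 1.33 and 1.26 for the receptor segments and at 0.835 and 0.785 for the alveolar type 2 and club cell list.

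Other lists held few weak single promoters. Pdgfrb, a receptor of pericytes and fibroblasts, rose from 9 and 10 to 22 and 23 reads (1.29 ± 0.374, adjusted p = 0.0305, edgeR's quasi-likelihood test), while the smooth muscle genes Acta2, with 24 and 28 and then 29 and 20 reads, and Myh11, with 11 and 15 and then 6 and 5, were not called; the list summed to 105 and 113 CPM in KL and 114 and 120 CPM in KLG4m/m. P2rx1 was the single member of the erythroid and platelet list. The ciliated list had 2 members (Cfap44 and Dnah5), the NK and cytotoxic list 2 (Gzmb and Klrd1), the squamous and basal list 1 (Serpinb5) and the endothelial list 1 (Vwf), none of them called. The gastric, intestinal and hepatic list had 2 members, of which 1 fell, and Pigr, the transport receptor of secreted antibodies, was not called, with 28 and 19 and then 17 and 21 reads. The alveolar type 1 and germline lists had no member.

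By gene family, ion channels (36 members, 1 higher, 0 lower, median log2 fold change -0.15), CD antigens, Fc receptors and lectins (32 members, 3 higher, 4 lower, 0.20), cilium and sperm flagellum genes (30 members, 0 higher, 1 lower, 0.22) and solute carriers (26 members, 1 higher, 0 lower, -0.01) were among the larger ones. Beside these counts stand 3.86% higher and 4.01% lower over all weak single promoters, and 3.10% and 5.52% over all listed peaks. The counts of this paragraph are a description, and nothing is read from them. Slc18a2, the vesicular monoamine transporter, was the solute carrier that rose, from 31 and 15 to 48 and 38 reads (0.96; 1.57 without KL replicate 1). Among lectins, Clec2l fell from 14 and 44 to 8 and 9 reads (-1.70; -0.65 without KL replicate 2 and -2.30 without KL replicate 1), Clec1b, the platelet receptor of podoplanin, from 16 and 21 to 6 in each (-1.55), and Klrb1b, an inhibitory receptor of NK cells, from 23 and 24 to 9 and 11 (-1.17). The 21 genes of interleukins, chemokines, interferons and their receptors held Il4 higher and Cxcl15 lower. Zinc finger genes gave 12 members of 408 such genes with a peak, with Zfp804a the single one called, and replication-dependent histone genes gave none of 46. Transfer RNA genes gave 14 members, of which n-TFgaa1 fell from 30 and 28 to 17 and 6 reads (-1.27; -2.15 without KLG4m/m replicate 3 and -0.75 without KLG4m/m replicate 4). Proteases and related genes gave 24 members, of which Mmp9 and Tmprss13 rose, G protein-coupled receptor genes 26, of which Gpr50 fell from 21 and 23 to 7 and 6 reads (-1.68), and antisense and host transcripts 29, of which Dio3os fell. Or5v1b was the called one of 4 olfactory and vomeronasal receptor genes. No call was made among 12 cytochrome P450, Ugt and Sult genes, 5 mucin, S100 and secretoglobin genes, 3 serpin genes and 1 keratin gene.

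Where these promoters lie differed from the strong ones in several respects that the rule did not use. The peak covered the start site at 51.7% of weak and 67.2% of strong single promoters and lay downstream of it at 38.0% and 25.1%. The nearest other listed peak was a median of 22.2 kb away for weak and 12.9 kb for strong single promoters. Transcripts had like medians of 19.8 and 20.1 kb, with upper quartiles of 69.1 kb for weak and 45.7 kb for strong ones. The X chromosome held 77 weak single promoters (5.94%), against 315 strong ones (3.07%), so that 19.6% of its single promoters were weak, beside 11.2% over all chromosomes. Protein-coding genes made up 89.7% of the weak and 96.4% of the strong ones. Regions are not replicates, and these shares are given as a description, with no test.

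The other listed peaks of the same genes were a measure that the rule did not use. Of the 1297 genes, 365 (28.1%) had 551 further peaks, at introns, flanks and intergenic sites, of which 27 were higher (4.90%) and 18 lower (3.27%); of all 18413 listed peaks outside promoters, 605 (3.29%) were higher and 520 (2.82%) lower. For the 50 genes whose weak promoter rose, the log2 fold change of 27 other peaks of 18 genes had a median of 0.465, with 3 higher and none lower. These were in Art4, 1.03 kb downstream of the start, from 6 and 17 to 32 and 24 reads (1.33, adjusted p = 0.0245, edgeR's quasi-likelihood test), in Ifitm1, 1.36 kb downstream, from 23 and 24 to 49 and 45 (1.05, adjusted p = 0.00764), and in Sp140l1, a nuclear body protein gene, 1.24 kb upstream, from 31 and 30 to 65 and 54 (1.02, adjusted p = 0.00419). Each stood within 2 kb of the promoter peak. Both KLG4m/m libraries lay above both KL libraries at 13 of the 27 and below both at none, beside 5007 above and 4490 below of the 18413.

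For the 52 genes whose weak promoter fell, 16 other peaks of 11 genes had a median of -0.290, with 4 lower and none higher. Both KLG4m/m libraries lay above both KL libraries at 1 of the 16 and below both at 9. Among all 18413 listed peaks outside promoters, 2.82% were called lower, and 5007 lay above and 4490 below in this way. For rises and falls alike, these peaks were read in the same libraries that called the promoters. Atp13a4, a transporting ATPase gene of the P5 class, whose promoter fell from 19 and 35 to 9 and 8 reads, was also lower at an intergenic peak 15.8 kb upstream (43 and 32 to 13 and 12 reads, -1.52, adjusted p = 0.00289, edgeR's quasi-likelihood test) and at an intron peak 12.3 kb downstream (52 and 56 to 21 and 29 reads, -1.05). Camk2b was lower at 1 intron peak at -4.09 kb from the start (45 and 44 to 12 and 12 reads, -1.82, adjusted p = 2.50e-04), while 2 further peaks of the gene were not called (53 and 45 and then 42 and 43 reads at 2.51 kb downstream). Clec2l was lower at an exon peak 13.5 kb downstream (23 and 21 to 6 and 8 reads, -1.58). At the other 8 genes no further peak was called.

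**Figure D5:**
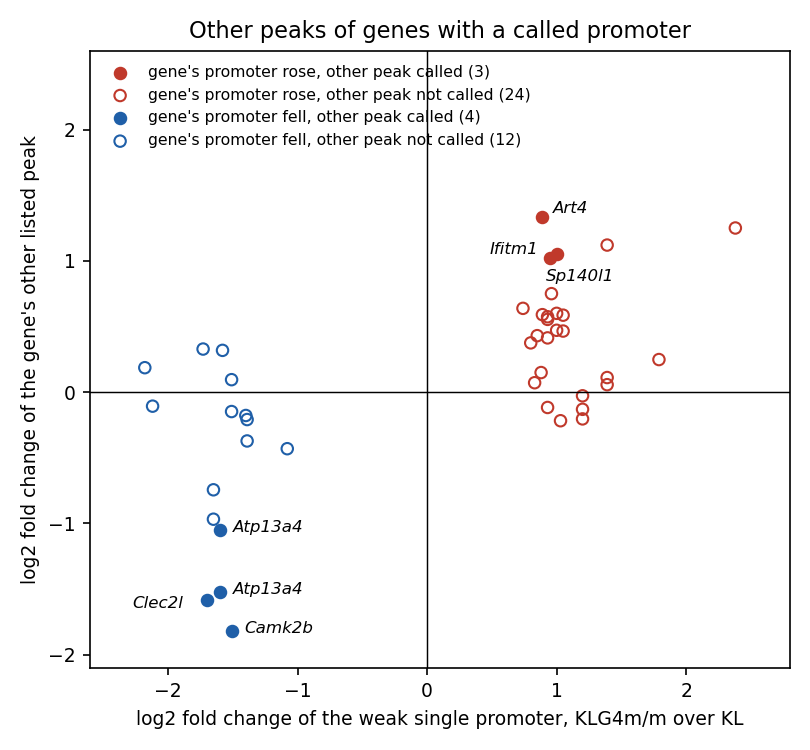
Log2 fold change (KLG4m/m over KL) of each other listed peak (y axis) against that of the called weak single promoter of the same gene (x axis), for 27 peaks of genes whose promoter rose (red) and 16 of genes whose promoter fell (blue), filled where the other peak was called. The 3 filled red points lie above 0 and the 4 filled blue points below 0, and several open points of either color lie near 0.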

How the data were processed

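H3K4me3 CUT&Tag of 2 KL and 2 KLG4m/m libraries was analysed. The kit named in the methods uses a protein A/G and MNase fusion. The authors trimmed reads with Trim Galore 0.6.10, aligned them with BWA 0.7.15, removed mitochondrial reads and those of mapping quality under 30, marked duplicates with Picard 2.17.3, called peaks with MACS2 2.2.7.1 and annotated them with HOMER 4.11.1. How peaks were merged across libraries is not given in the sources used here. The methods name an Ensembl mouse genome of the GRCm38 build, yet of 6215 promoter peaks whose transcript is as long as the RefSeq GRCm38.p6 gene only 1.96% have the same start position, so the build of the table is uncertain and peak positions are given as in the table. All peaks are windows of 401 bp. The deposited counts are reads per peak and library, and the CPM values were computed by the authors per 1000000 reads in listed peaks. The deposited log2 fold changes and mean levels, F score, p-value and FDR columns hold the authors' own comparison and were not used.

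Counts of all 35486 peaks were tested with edgeR 4.0.16 (R 4.3.3, quasi-likelihood test, TMM scaling, Benjamini-Hochberg adjustment, threshold 0.05), with no filter on low values. Counting error and the spread of 2 libraries per group are all that the errors cover. The alternatives were DESeq2 1.42.0, limma 3.58.1 on log2(CPM + 1) and log2(CPM + 0.25), other scalings, a minimum of 5 CPM, other membership limits and leaving out each library. The steps were tested on simulated data. Named were the 12 largest rises and the 12 largest falls among called members with no overlap between the groups. Also named were the 5 highest and the 5 lowest members in KL, the 5 highest in KLG4m/m and the called or defining members of the lists. Other called members were named by role after their values were seen. The members, 16 gene lists and 21 families were chosen with earlier results of these data known, and 3 families (receptor segments, H2 and butyrophilin-like genes) after the values were seen. H3K27ac was not analysed here. Some named members and 1 allele are not reported here.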

Additional observations from a re-analysis of the deposited data

How the results depend on the processing

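The counts of 50 higher and 52 lower promoters depended on the test and on the libraries. DESeq2 called 1 and 0, and limma with a pseudocount of 1 or of 0.25 called 0 and 0, with the lowest adjusted p among members at 0.0902 and 0.110. When 1 library was left out, edgeR called 0 to 35 higher and 0 to 38 lower. The median log2 fold change was then -0.0503 to 0.0130. Each of these fits, for KL as for KLG4m/m, left a lone library that was assumed to vary like the other group. Both zeros came without either KLG4m/m replicate, and the reason was not tested. Without KL replicate 2 the counts were 28 and 18. Without TMM 49 and 52 were called, and with median scaling 50 and 61. None of the 102 changes turned its direction with limma at a pseudocount of 1, with another scaling or without 1 library. Nor did any of those tested with DESeq2 (80 had no adjusted p) or with a minimum of 5 CPM (39 were not tested). All 102 lacked overlap between the groups, so these settings could hardly have turned a direction, and nothing is read from this. With a minimum of 5 CPM, 852 members remained to be tested, with 44 higher, 25 lower and a median of 0.0208. An unadjusted p under 0.05 gave 141 and 160.

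The membership limit set the balance of directions. A mean under 5 CPM in KL gave 24 higher and 5 lower with a median of 0.236 and left 5 members at 10 CPM or more in KLG4m/m, in place of 133. A mean under 20 CPM in KL gave 88 and 178 with a median of -0.0853. Choosing by the mean of all 4 libraries gave 33 and 94 (-0.143), and by KLG4m/m 20 and 182 (-0.253). When KL replicate 1 alone chose the members and replicate 2 was compared with KLG4m/m, 31 were higher and 50 lower (median -0.0550), and in the opposite arrangement 26 were higher and 24 lower.

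For the other listed peaks, 27 higher and 18 lower became 2 and 1 with DESeq2 and 0 and 0 with limma, and 0 to 20 higher and 0 to 11 lower when 1 library was left out. The cause of these differences was not tested. No paired analysis was possible because KL and KLG4m/m share no replicate numbers. The smallest change called was 2.01 on the log2 scale under 3 CPM and 0.733 from 9 CPM.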
